A study of Mus musculus with 2 samples.

Results

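Transcripts of inhibitory transmission and of amacrine cells were followed through the mouse retina at postnatal day 7: Gad1, Gad2, Slc32a1, Slc6a9, Tfap2a, Tfap2b and C1ql2. They were taken by symbol, 7 of the 30905 genes in the files, and all 7 had at least 1 read somewhere. The control library pooled 2 retinas from 2 control pups. The Mettl3-CKO library pooled 2 retinas from 2 littermates that were Six3-Cre+ with Mettl3 floxed/floxed. Mettl3 is the catalytic subunit of the m6A methyltransferase, which methylates adenosines of mRNA, and Six3-Cre deletes the gene in retinal progenitor cells (RPCs), from which neurons and Müller glia descend. The study shows efficient deletion in the central retina, and the genotype of the control pups is not given in the sources used here. Each group was 1 library, so no comparison below has a replicate and no p-value is given. Every interval is a 95% interval that covers counting error only.

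Amacrine cells are interneurons of the inner retina that release GABA or glycine onto bipolar cells, ganglion cells and each other. Gad1 and Gad2 encode the 2 enzymes that make GABA from glutamate. Slc32a1 encodes the transporter that loads both GABA and glycine into synaptic vesicles, and Slc6a9 encodes GlyT1, the plasma membrane glycine transporter by which glycinergic amacrine cells are usually recognised. Tfap2a and Tfap2b encode AP-2 transcription factors of differentiating amacrine and horizontal cells. C1ql2 encodes a secreted C1q-like protein found at synapses. In the mouse, GABAergic amacrine cells are mostly born before glycinergic ones.

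The control library held 20955138 UMIs (unique molecular identifiers, each standing for 1 captured transcript) in 3994 cells, and the Mettl3-CKO library held 19957693 in 3109 cells. The medians were 4520.5 and 5207 UMIs per cell, and 5 cell barcodes occurred in both libraries. Mettl3 itself stood at 39.5 UMIs per 1000000 UMIs (CPM) in control and 33.1 CPM in Mettl3-CKO cells, a ratio of 0.837 (0.754 to 0.928). The reads come from the 3′ end of the transcript, which does not show whether a floxed exon was removed. Xist, the RNA of the inactive X chromosome, was at 1.53 CPM in control and 1544 CPM in Mettl3-CKO cells, so sex and genotype cannot be told apart for those Mettl3-CKO cells that carry it. Results in Mettl3-CKO cells are therefore also given for cells without an Xist UMI where they differ.

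On GRCm38, Gad1 lies on chromosome 2 from 70553072 to 70602014, Gad2 on chromosome 2 from 22622205 to 22693874 and Slc32a1 on chromosome 2 from 158610767 to 158615748, all on the plus strand. Slc6a9 lies on chromosome 4 from 117834506 to 117875198 on the plus strand. Tfap2a lies on chromosome 13 from 40715302 to 40738376 on the minus strand. Tfap2b and C1ql2 lie on the plus strand of chromosome 1, from 19208914 to 19238576 and from 120340582 to 120343174. Of these, 5 overlap another annotated gene. The 3′ end of Slc6a9 overlaps B4galt2 on the opposite strand, which had 798 UMIs over both libraries, and whether the counting used the strand is not stated. Gad1os, the antisense gene that overlaps Gad1, had 0 UMIs.

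The promoters of the 2 GABA enzymes are shown because Gad2 had many UMIs in these data while Gad1 had few. Each run is the RefSeq promoter of GRCm38.p6, from 250 bases before to 50 after the annotated start, 5′ to 3′ on the gene's strand. Gad2 spans chr2:22622077-22622376 and Gad1 chr2:70561879-70562178, both plus strand. Capitals mark the AP-2 core motif GCCNNNGGC, which reads the same on both strands.
Gad2 promoter: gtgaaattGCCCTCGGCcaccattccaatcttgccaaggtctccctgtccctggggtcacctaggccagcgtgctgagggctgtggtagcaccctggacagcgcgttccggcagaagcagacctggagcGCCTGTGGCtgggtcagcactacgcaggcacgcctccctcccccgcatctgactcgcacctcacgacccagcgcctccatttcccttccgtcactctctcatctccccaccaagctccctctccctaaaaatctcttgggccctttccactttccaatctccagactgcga
Gad1 promoter: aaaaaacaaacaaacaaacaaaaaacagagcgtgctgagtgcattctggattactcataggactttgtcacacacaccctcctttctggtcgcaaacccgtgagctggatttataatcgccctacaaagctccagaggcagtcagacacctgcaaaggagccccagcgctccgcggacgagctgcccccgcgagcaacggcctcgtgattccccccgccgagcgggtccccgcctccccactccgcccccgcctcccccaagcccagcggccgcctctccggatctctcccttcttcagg
The Gad2 promoter held 2 matches, at 242 and 121 bases before the start, and the Gad1 promoter held 0. The promoters of Slc32a1, expressed almost only in the amacrine-like class below, and of Tfap2b, on chr2:158610508-158610807 and chr1:19211804-19212103, both plus strand, also held 0.
Slc32a1 promoter: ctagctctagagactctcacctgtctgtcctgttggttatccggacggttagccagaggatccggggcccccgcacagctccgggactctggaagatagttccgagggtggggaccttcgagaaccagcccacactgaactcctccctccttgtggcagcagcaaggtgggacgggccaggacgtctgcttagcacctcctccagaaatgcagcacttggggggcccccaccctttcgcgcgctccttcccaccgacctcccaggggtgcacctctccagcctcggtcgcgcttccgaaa
Tfap2b promoter: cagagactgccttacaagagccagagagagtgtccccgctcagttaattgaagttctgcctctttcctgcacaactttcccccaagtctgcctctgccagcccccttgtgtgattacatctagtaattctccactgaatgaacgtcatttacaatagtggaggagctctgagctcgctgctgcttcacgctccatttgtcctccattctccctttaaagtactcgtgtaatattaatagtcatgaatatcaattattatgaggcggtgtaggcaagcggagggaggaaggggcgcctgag
Of 10 promoters listed for the 7 genes, 1 held the motif. Of all 32851 mouse promoters of the same length, 16.6% did. A match is a description of these letters, and no binding was measured.

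Cells were grouped by clustering, with all 7 transcripts kept out of the genes that formed the clusters, and clusters were named from markers that include none of the 7. Cluster 15 was the amacrine-like class, with 60 control cells and 57 Mettl3-CKO cells, out of 3994 and 3109. All 10 amacrine markers were detected there in each library and 8 of 10 were at least 1.5-fold higher than in other cells. Pax6, a homeodomain factor of amacrine cells and progenitors, was at 1199 and 1184 CPM in control and Mettl3-CKO cells, against 182 and 210 CPM elsewhere. Elavl3, a neuronal RNA-binding protein, was at 1067 and 910 CPM, and Calb2 (calretinin) at 497 and 282 CPM. Stx1a, the syntaxin recognised by the HPC-1 antibody, had 1 and 3 UMIs, and Snap25 was lower than in other cells, at 190 and 281 CPM. Of 6 horizontal cell markers, 2 were above the fold in each library. Onecut2 was at 205 and 307 CPM, against 95.9 and 119 CPM in other cells, Lhx1 had 0 and 4 UMIs, and Calb1 was at 0 in both libraries. Of 8 ganglion cell markers, 4 were at 0 in each library and 3 in control and 2 in Mettl3-CKO cells were above the fold, with a summed level of 23.0 and 34.5 CPM. Of 7 neurogenic markers, 2 were above the fold in each library. Gadd45a was at 365 and 309 CPM, against 42.3 and 41.1 CPM in other cells. Neurog2 was at 132 and 117 CPM, against 51.8 and 68.8 CPM. Of 6 rod and bipolar precursor markers, 1 was above the fold in control and 0 in Mettl3-CKO cells. The 1 was Neurod4, at 1234 against 664 CPM. The part of these other cell types or stages in the results was not tested. Rod markers summed to 2314 and 3800 CPM in the class, against 30066 and 24591 CPM in rod-like cells.

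Of the 7 transcripts, 5 had enough UMIs to be compared between classes, and each of the 5 was at least 1.5-fold higher in amacrine-like cells than in all other cells of the same library. Over all genes with at least 20 UMIs, 15.1% in control and 14.4% in Mettl3-CKO cells were that much higher. The median log2 ratio over the 5 was 5.42 in control and 6.21 in Mettl3-CKO cells, against −0.28 and −0.21 over all genes. The class itself is defined by amacrine markers, so this ratio describes where the transcripts were and is no test.

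Gad2 was at 315 CPM (268 to 367, 164 UMIs) in control amacrine-like cells and at 282 CPM (242 to 328, 172 UMIs) in Mettl3-CKO ones. These were 13.9-fold (11.5 to 16.6) and 13.4-fold the level in all other cells. Even so, only 26.1% and 29.6% of Gad2 UMIs lay in the class, because Gad2 was also counted in neurogenic-like, RPC-like and Müller-like cells. These held 165, 59 and 114 Gad2 UMIs in control and 178, 75 and 48 in Mettl3-CKO retinas. In the control library Gad2 stood at 45.9 CPM in RPC-like, 43.8 CPM (36.2 to 52.7) in Müller-like and 38.6 CPM (32.9 to 45.0) in neurogenic-like cells, with overlapping intervals. It was lower in bipolar-like cells at 18.0 CPM (12.3 to 25.5) and in rod-like cells at 2.60 CPM (1.30 to 4.66). Among Mettl3-CKO cells the RPC-like, neurogenic-like and Müller-like classes stood at 39.4, 33.6 and 33.4 CPM, again with overlapping intervals. The share of free RNA in these droplets was not estimated. After each cell was thinned to 2000 UMIs, a Gad2 UMI was seen in 9.09% of control RPC-like and 8.59% of Müller-like cells, and in 0 of 839 rod-like cells, for which the exact upper bound is 0.439%. In Mettl3-CKO cells the shares with Gad2 were 9.59%, 3.59% and 0.660%.

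Gad1 had 10 UMIs in the whole control library and 8 in the Mettl3-CKO library, and 0 in amacrine-like cells of either. Zero counts allow up to 5.76 CPM in control and 4.93 CPM in Mettl3-CKO amacrine-like cells, taking 3 counts as the floor. Both values lie far below the Gad2 level of the same cells. Whether the low Gad1 count reflects its RNA level or the capture and counting of its 3′ end was not tested. Of the 18 Gad1 UMIs in both libraries, 3 were in control neurogenic-like cells and the others were spread over RPC-like, Müller-like, rod-like, cone-like and unnamed cells. C1ql2 likewise had few UMIs, with 2 and 3 in all cells and 0 and 1 in amacrine-like cells. No ratio between libraries is given for either gene.

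Slc32a1 was the transcript most concentrated in the class, with 81.8% of its UMIs in control and 89.1% in Mettl3-CKO amacrine-like cells. Its level was 86.3 CPM (63.0 to 116, 45 UMIs) and 80.5 CPM (59.5 to 106, 49 UMIs), against 0.489 and 0.310 CPM in other cells, a ratio of 176 (87.6 to 393) and 260 (111 to 741). Outside the class no named cell class held more than 2 Slc32a1 UMIs in a library.

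Slc6a9 was the least concentrated of the 5. It was at 223 CPM (184 to 267, 116 UMIs) and 172 CPM (141 to 209, 105 UMIs) in amacrine-like cells, but only 10.3% and 11.1% of its UMIs were there. Rod-like cells and unnamed clusters 1 and 2 held most of the rest. Rod-like cells had 82.6 CPM (74.1 to 91.7) in control and 78.6 CPM (70.2 to 87.8) in Mettl3-CKO retinas. Unnamed cluster 1, led by Ccdc136 and Pcp2 and with the rod factor Nr2e3 among its leading genes, had 122 and 101 CPM, and cluster 2, led by Ece1 and nearest to rod and bipolar precursor markers, had 87.8 and 80.8 CPM. Cluster 5, whose cells had medians of only 857.5 and 830 UMIs, had 187 CPM (139 to 248) and 105 CPM (63.2 to 164), so its control interval overlapped that of amacrine-like cells. RPC-like and Müller-like cells had 3.11 and 4.23 CPM in control and 3.68 and 4.88 CPM in Mettl3-CKO retinas. At a common depth of 2000 UMIs, a Slc6a9 UMI was seen in 15.9% of control rod-like and 1.03% of Müller-like cells, and in 37.3% of amacrine-like cells. A Slc6a9 UMI alone therefore did not mark a cell of this data set as amacrine-like.

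Tfap2b, at 577 CPM (514 to 647, 301 UMIs) in control and 419 CPM (369 to 473, 255 UMIs) in Mettl3-CKO amacrine-like cells, was 153-fold (119 to 199) and 127-fold (95.9 to 169) the level elsewhere. The class held 79.6% and 79.9% of its UMIs. Tfap2a was at 44.1 CPM (28.0 to 66.2, 23 UMIs) and 80.5 CPM (59.5 to 106, 49 UMIs), with 52.3% and 70.0% of its UMIs in the class. Outside it, Tfap2a did not exceed 7 UMIs in any named class of either library, and Tfap2b had at most 27 UMIs in control (neurogenic-like) and 18 in Mettl3-CKO cells (rod-like).

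**Figure D1:**
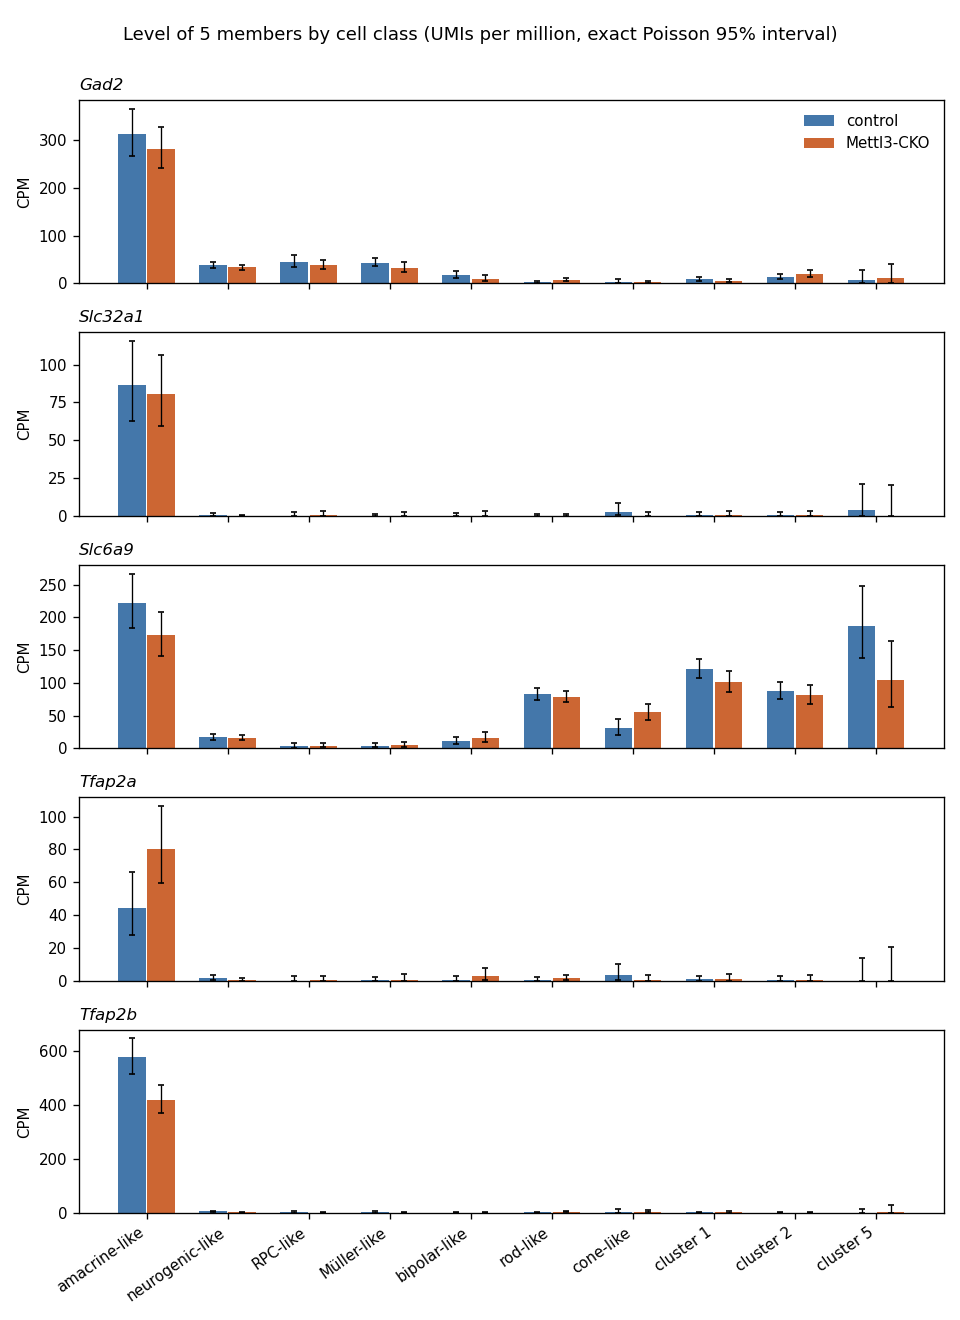
Level of Gad2, Slc32a1, Slc6a9, Tfap2a and Tfap2b (CPM of summed UMIs, linear axes from 0) in 7 named cell classes and 3 unnamed clusters of the control (blue) and Mettl3-CKO (orange) libraries, with exact Poisson 95% intervals for counting error. Slc32a1, Tfap2a and Tfap2b are near 0 outside the amacrine-like class, Gad2 also appears in neurogenic-like, RPC-like and Müller-like cells, and Slc6a9 in rod-like cells and clusters 1, 2 and 5.

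The transcripts were unevenly spread over the amacrine-like cells themselves. In the control library, Gad2 was absent from 17 of 60 cells, had 1 UMI in 10, 2 to 4 in 18 and 5 or more in 15, with a highest count of 11. In the Mettl3-CKO library the numbers were 15, 11, 21 and 10 of 57 cells, and 1 cell held 34 of the 172 UMIs. Tfap2b reached 5 or more UMIs in 24 control and 18 Mettl3-CKO cells and was absent from 18 and 15. Tfap2a was seen in 14 of 60 and 20 of 57 cells, with at most 4 UMIs per control cell and 10 per Mettl3-CKO cell. Slc32a1 was seen in 27 and 25 cells, mostly with 1 UMI. Total UMIs per amacrine-like cell ran from 736 to 16645 in control and from 536 to 71838 in Mettl3-CKO retinas. Above 20000 UMIs there were 4 Mettl3-CKO and 0 control amacrine-like cells, and these 4 held 22.7% of the class's UMIs.

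The question of whether GABA and glycine transcripts meet in the same cell was asked with Gad1 or Gad2 as the GABA side and Slc6a9 as the glycine side. With all UMIs, 35 of 60 control amacrine-like cells carried both, 8 only the GABA side, 7 only Slc6a9 and 10 neither. In the Mettl3-CKO library 26 of 57 carried both, 16 only the GABA side, 6 only Slc6a9 and 9 neither. Since Gad1 was at 0, every GABA call came from Gad2. Depth differed between these groups, with medians of 10821 UMIs in control cells with both and 1924.5 in those with neither, and of 11618.5 and 6640 in Mettl3-CKO cells.

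With every cell thinned to 2000 UMIs and shallower cells dropped, 11 of 51 control cells carried both (21.6%, exact binomial 11.3 to 35.3%) and 4 of 52 Mettl3-CKO cells (7.69%, 2.14 to 18.5%). The unthinned shares were 58.3% (44.9 to 70.9%) and 45.6% (32.4 to 59.3%). In both settings the control share was higher and the intervals of the libraries overlapped. Among the 12 thinned Mettl3-CKO cells without an Xist UMI, 16.7% carried both and 33.3% neither, against 7.69% and 53.8% of all 52. For background, 0 of 839 control and 1 of 606 Mettl3-CKO rod-like cells carried both at the same thinned depth, as did 0 of 291 and 0 of 167 Müller-like cells. Only 1 of 839 and 4 of 606 rod-like cells had the GABA side, and 3 of 291 and 1 of 167 Müller-like cells had Slc6a9. These counts of both were therefore bound to be low. With all UMIs, 7 of 13 and 14 of 24 rod-like cells with the GABA side also had Slc6a9. Among rod-like cells without it the shares were 25.5% and 34.2%. In neurogenic-like cells, which have some of each transcript, 3 of 543 and 2 of 673 carried both when thinned to 2000 UMIs. With all UMIs, 14 of 549 and 18 of 678 neurogenic-like cells carried both.

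Within the class, the transcripts of the 2 transmitters were not exclusive. Among thinned control cells with Gad2, 11 of 20 (31.5 to 76.9%) also had Slc6a9, against 25.8% (11.9 to 44.6%, 8 of 31) of those without. Among thinned Mettl3-CKO cells the shares were 22.2% (6.41 to 47.6%, 4 of 18) and 17.6% (6.76 to 34.5%, 6 of 34). The intervals overlapped in each library.

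Slc6a9 was also found in rod-like cells, so rod markers were measured in the same cells. Their summed level in control cells was 2716 CPM where both transcripts were seen, 1494 CPM in GABA-only and 822 CPM in glycine-only cells, and in Mettl3-CKO cells 4701, 1508 and 4741 CPM. The median cell had far less: 345, 203 and 270 CPM in control and 255, 220 and 536 CPM in Mettl3-CKO cells, against 30264 and 27190 CPM in rod-like cells. The sums thus exceeded the level of the median cell in every group. The part of rod RNA in the shares was not tested beyond leaving out the 6% of cells with the highest doublet scores, which gave 26.3% and 7.69% of cells with both.

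**Figure D2:**
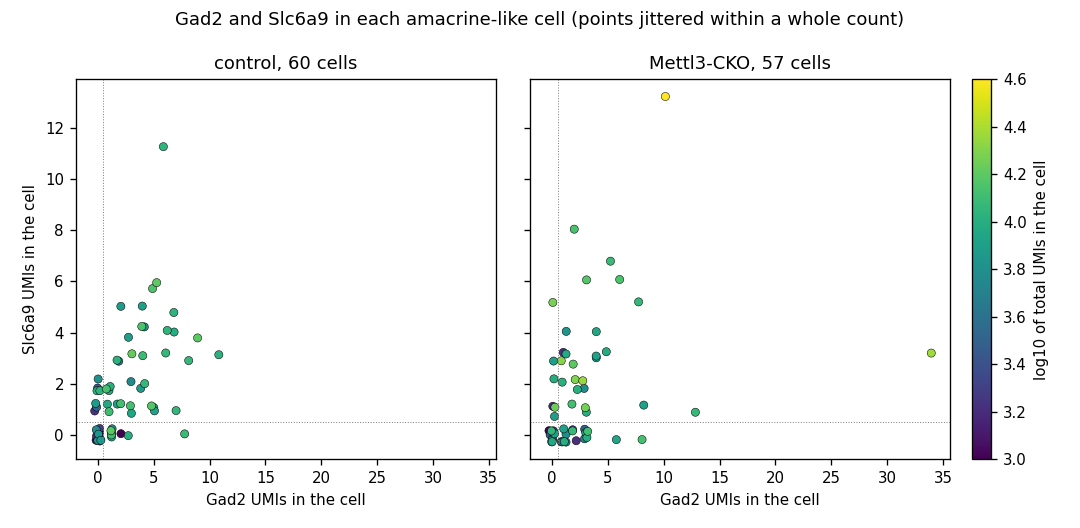
Gad2 UMIs (horizontal axis) against Slc6a9 UMIs (vertical axis) in each amacrine-like cell of the control (60 cells) and Mettl3-CKO (57 cells) libraries, jittered within a whole count and coloured by the log10 of the cell's total UMIs. The dotted lines separate 0 from 1 UMI: 35 control and 26 Mettl3-CKO cells lie beyond both lines, and 1 Mettl3-CKO cell has 34 Gad2 UMIs.

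**Figure D3:**
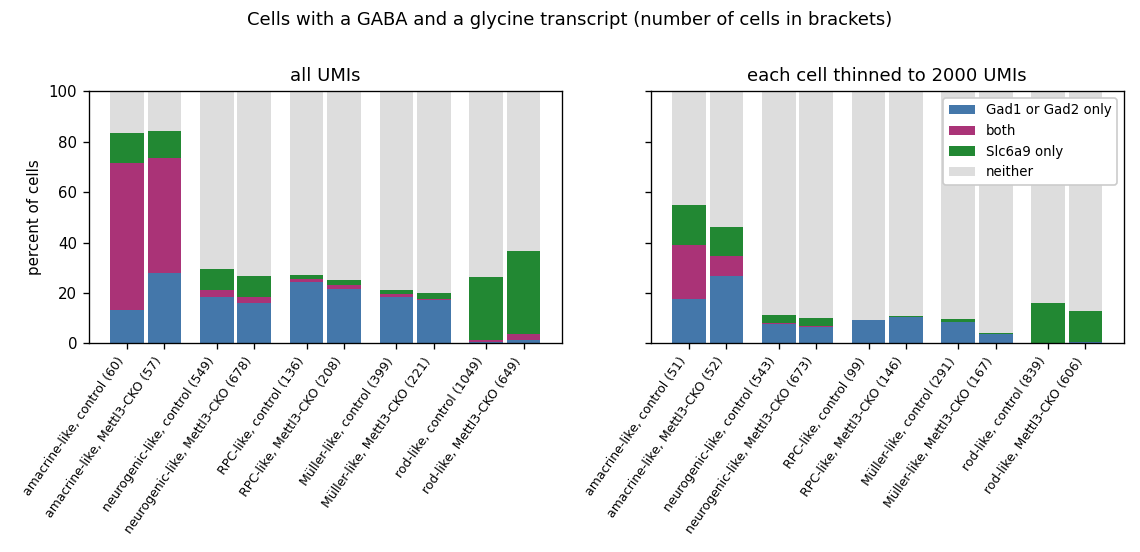
Share of cells (percent) with a UMI of Gad1 or Gad2 only, of Slc6a9 only, of both or of neither, in 5 classes of each library, with all UMIs (left) and after each cell was thinned to 2000 UMIs (right). The share with both is 58.3% and 45.6% of amacrine-like cells on the left and 21.6% and 7.69% on the right. In rod-like cells it is 0.667% and 2.16% on the left, where only 1.24% and 3.70% have the GABA side. In RPC-like and Müller-like cells Slc6a9 is likewise rare, so a low share with both was bound to follow in these classes.

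The vesicular transporter serves either transmitter, and Slc32a1 was seen beside each. Among control cells with Slc32a1, 22 of 27 also had Gad2 and 22 of 27 (81.5%, 61.9 to 93.7%) had Slc6a9. Of control cells without Slc32a1, 20 of 33 (60.6%, 42.1 to 77.1%) had Slc6a9, so the control intervals overlapped. Among Mettl3-CKO cells with Slc32a1, 21 of 25 had Gad2 and 22 of 25 (88.0%, 68.8 to 97.5%) had Slc6a9, while 10 of 32 cells without Slc32a1 (31.3%) had Slc6a9. Grouped by transmitter over both libraries, Slc32a1 was seen in 37 of 61 cells with both, 7 of 13 glycine-only, 6 of 24 GABA-only and 2 of 19 cells with neither. Its level was 96.4, 114 and 38.8 CPM in the first 3 of these, from 73, 12 and 7 UMIs, too few in the last 2 for a ratio. These detections were not thinned to a common depth.

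Of the AP-2 factors, Tfap2b was lower in glycine-only than in GABA-only cells of each library. In the 24 GABA-only cells of both libraries Tfap2b was at 737 CPM (617 to 874, 133 UMIs), and in the 13 glycine-only cells at 133 CPM (72.7 to 223, 14 UMIs), a ratio of 0.180 (0.0960 to 0.313). The ratio was 0.121 in control cells alone and 0.212 in Mettl3-CKO cells alone. Tfap2b was seen in 75.0% of GABA-only and 38.5% of glycine-only cells, whose median depths were close, at 7843.5 and 7742 UMIs. Tfap2a was at 166 CPM (112 to 237, 30 UMIs) and 28.5 CPM (5.88 to 83.3, 3 UMIs), a ratio of 0.171 (0.0335 to 0.551), and was seen in 7 of 24 and 3 of 13 cells. Of the 30 GABA-only UMIs 26 came from Mettl3-CKO cells, where the ratio was 0.139, and the control ratio of 0.393 rests on 1 against 4 UMIs. Without the cell of each group that had the most UMIs of the gene, the ratios were 0.155 (0.0723 to 0.297) for Tfap2b and 0.177 (0.0201 to 0.730) for Tfap2a. Over both libraries, cells with both transmitter sides had 470 CPM of Tfap2b and 50.2 CPM of Tfap2a, and cells with neither had 607 and 11.4 CPM. In the control library alone, Tfap2b was as high in cells with both (611 CPM) as in GABA-only cells (583 CPM). Of 2827 genes with enough UMIs, 16.6% were at least 1.5-fold higher in GABA-only and 12.8% in glycine-only cells. A cell counted as glycine-only may hold undetected Gad2, and 13 and 24 cells from 2 libraries are not replicates.

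By the size rule, the genes highest in glycine-only cells were Podxl2, a sialomucin, at 3.26-fold (1.85 to 5.91), the amacrine factor Ebf1 at 2.41-fold (1.89 to 3.08), the nuclear factor Nfix at 2.31-fold, the calcium-binding protein gene Cabp1 at 2.22-fold and the histone gene Hist3h2a at 2.20-fold. The lowest were Cldn5, a tight junction gene of blood vessels, at 0.0544 (0.00645 to 0.205), then Tfap2b, the ubiquitin ligase gene Fbxw7 at 0.245, the RNA-binding protein gene Rbmx at 0.315 and the glutamate transporter gene Slc1a6 at 0.321. In control cells alone Fbxw7 was at 0.898 and Slc1a6 at 0.785, and in Mettl3-CKO cells alone they were at 0.129 and 0.226. Cldn5 was seen in 26.7% and 35.1% of amacrine-like cells, where the endothelial genes Pecam1 and Cdh5 were at 0 in each library. Ebf3, related to Ebf1, was 2.17-fold (1.51 to 3.14) higher in glycine-only cells, with 1.33 in control and 4.05 in Mettl3-CKO cells alone. Prdm13, Neurod2, Neurod6 and Barhl2 had ratios from 0.979 to 1.04, though for Barhl2 the libraries gave 5.50 and 0.630. The direction also differed between the libraries for Ptf1a, Tfap2c, Meis2, Bhlhe22 and Prdm13.

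**Figure D4:**
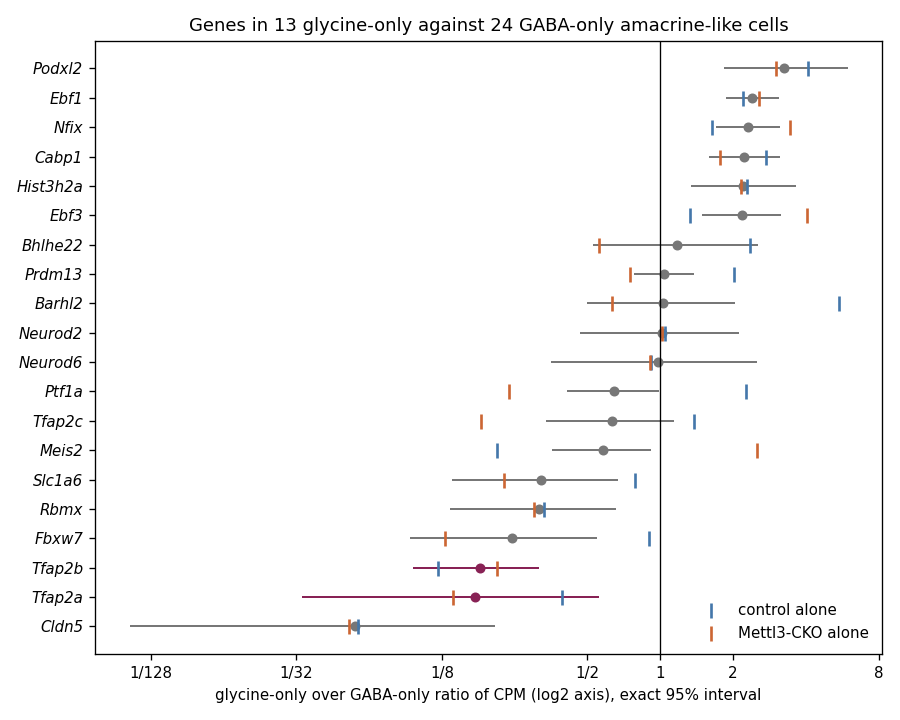
Ratio of CPM in 13 glycine-only over 24 GABA-only amacrine-like cells, both libraries summed (points, log2 axis, exact 95% interval), for the 10 genes named by size and the listed transcription factors with at least 20 UMIs, with the ratio of each library alone as a coloured tick. Tfap2a and Tfap2b (dark red) lie at 0.171 and 0.180 with both ticks below 1 (the control tick of Tfap2a from 1 against 4 UMIs), and Ebf1 and Ebf3 lie at 2.41 and 2.17 with both ticks above 1.

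Between the libraries, 4 of the 5 transcripts in amacrine-like cells differed by less than 1.5-fold. The other, Tfap2a, was past it, against 21.2% of the 7344 genes with 20 or more UMIs in the class, so a count of 1 of 5 is near the background. The median log2 ratio of Mettl3-CKO over control was −0.16 over the 5 and 0.05 over all genes. Mettl3 in these cells was at 40.3 and 32.8 CPM, a ratio of 0.815 (0.419 to 1.58).

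For the enzymes and transporters the ratio was 0.898 (0.721 to 1.12) for Gad2, 0.932 (0.609 to 1.43) for Slc32a1 and 0.775 (0.589 to 1.02) for Slc6a9. All 3 intervals hold 1, and differences inside them could not be seen at this depth. Without the single deepest-count cell of each library for the gene, Gad2 was at 0.787 (0.621 to 0.997). In the Mettl3-CKO amacrine-like cells without an Xist UMI, the log2 ratio moved from −0.16 to 0.50 for Gad2 and from −0.37 to 0.26 for Slc6a9.

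Tfap2a was higher in Mettl3-CKO amacrine-like cells, at 80.5 against 44.1 CPM, a ratio of 1.82 (1.09 to 3.14). Its log2 ratio was 0.87, and 0.66 to 1.27 over the alternative settings. Without the highest cell of each library it was 1.75 (0.988 to 3.21), and the Tfap2a UMI was seen in 20 of 57 against 14 of 60 cells. Tfap2b was lower, at 419 against 577 CPM, a ratio of 0.725 (0.611 to 0.860) that stays within 1.5-fold. Its interval lies below 1, but with every cell given the same weight the log2 ratio was −0.13 in place of −0.46. The other AP-2 gene of the class, Tfap2c, was at 284 and 210 CPM, a ratio of 0.740 (0.580 to 0.944).

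**Figure D5:**
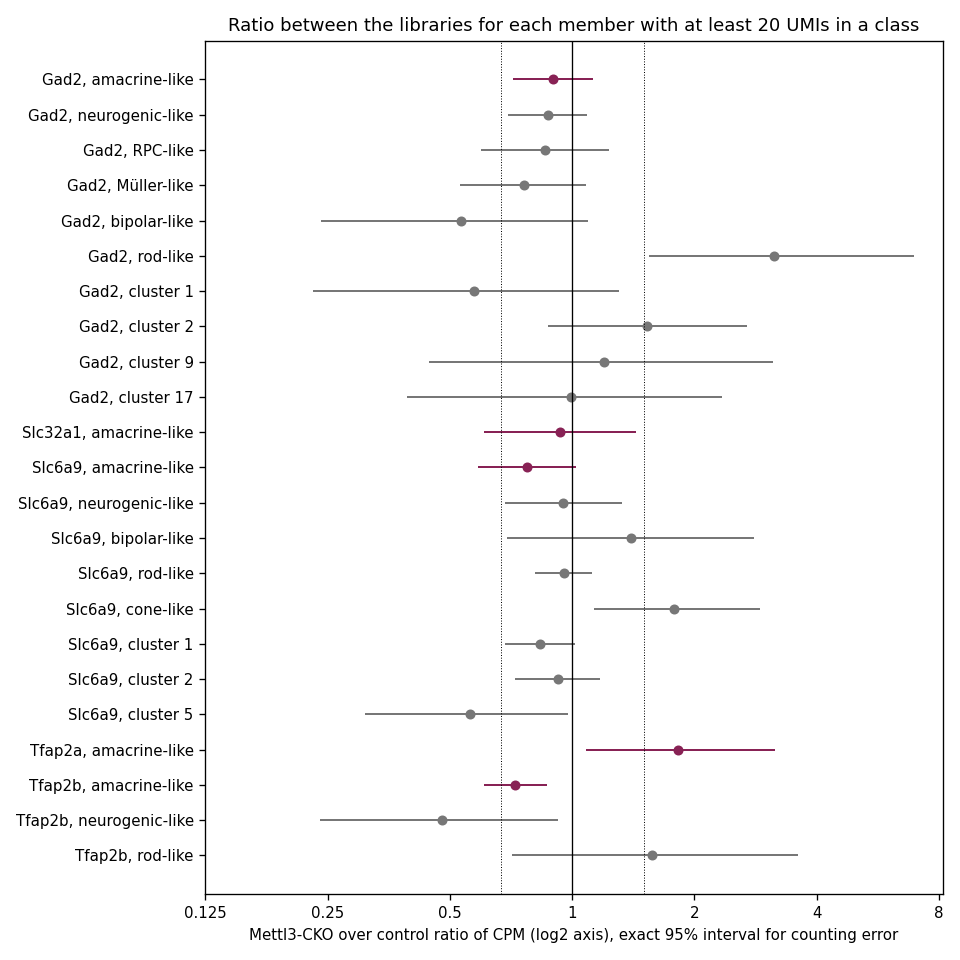
Mettl3-CKO over control ratio of CPM (log2 axis) with exact 95% intervals for counting error, for each of the 5 transcripts in each class where it had at least 20 UMIs over both libraries (dark red: amacrine-like cells; dotted lines: 1.5-fold in either direction). In amacrine-like cells only Tfap2a, at 1.82, is past a dotted line.

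Elsewhere in the retina, the largest ratio of a member was that of Gad2 in rod-like cells, at 2.60 CPM (11 UMIs) in control and 8.19 CPM (33 UMIs) in Mettl3-CKO retinas, a ratio of 3.15 (1.55 to 6.90), with 12.2% of genes past 1.5-fold in that class. Of the 33 UMIs, 28 were in rod-like cluster 11, which made up 156 of 649 Mettl3-CKO and 67 of 1049 control rod-like cells and had medians of 10843.5 and 9842 UMIs per cell. Within cluster 11 Gad2 was at 7.71 and 14.1 CPM, from 5 and 28 UMIs, and in rod-like cluster 0, the most numerous, at 1.62 and 2.16 CPM. Pax6, which is no rod gene, was also higher in cluster 11, at 13.9 and 35.2 CPM, and its part in the Gad2 value was not tested. Tfap2b in rod-like cells had 12 and 18 UMIs, a ratio of 1.57 (0.717 to 3.58).

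Gad2 in the progenitor and glial classes was 0.857 (0.601 to 1.23) in RPC-like, 0.870 (0.700 to 1.08) in neurogenic-like and 0.762 (0.532 to 1.08) in Müller-like cells, with 19.4%, 13.5% and 18.2% of all genes past 1.5-fold. None of these was past the fold. In bipolar-like cells it was 0.534 (0.243 to 1.09) from 32 and 11 UMIs, with a background of 20.7%. In cluster 1 it was 0.572 (0.232 to 1.29) and in cluster 2 1.53 (0.877 to 2.68), with backgrounds of 11.3% and 10.8%. All 3 passed the fold on few UMIs with intervals that hold 1.

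Slc6a9 in rod-like cells had a ratio of 0.953 (0.816 to 1.11) between the libraries on 349 and 317 UMIs. In cone-like cells it was at 30.7 CPM (26 UMIs) in control and 54.8 CPM (83 UMIs) in Mettl3-CKO retinas, a ratio of 1.79 (1.14 to 2.89) with a background of 17.9%, and the median depth of cone-like cells was 8298 and 12840 UMIs. At a common 2000 UMIs, the share of cone-like cells with Slc6a9 was 9.52% (4.20 to 17.9%) and 7.77% (3.41 to 14.7%), which does not go the same way. In cluster 5 the ratio was 0.560 (0.311 to 0.969), from 49 and 19 UMIs, with a background of 24.6%. In neurogenic-like cells Slc6a9 was at 0.952 (0.687 to 1.32), and Tfap2b at 0.478 (0.241 to 0.919) from 27 and 16 UMIs in 15 and 11 cells. This Tfap2b ratio was past the fold, with a background of 13.5%. Without the highest cell of each library it was 0.467 (0.201 to 1.03), an interval that holds 1.

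The wider pathways were read from 8 gene lists. Of the 8 genes of GABA synthesis, transport and breakdown, 4 had 20 UMIs in amacrine-like cells over both libraries and 0 were past 1.5-fold between them, where 21.2% of all genes were, so 0 of 4 is near the background. Abat, which degrades GABA, was at 78.7 and 64.0 CPM and was 6.11-fold and 5.85-fold higher than in other cells. Of 6 glycine genes, 3 were counted and 0 passed, again near the background. Slc6a5, which encodes the neuronal glycine transporter GlyT2, had 6 and 5 UMIs, all of them in amacrine-like cells and 0 elsewhere, and was named after its values were seen. Gcsh of the glycine cleavage system was at 42.2 and 37.8 CPM, lower than in other cells.

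Among the GABA receptor subunits counted in the class, Gabra2 was lower in Mettl3-CKO cells, at 55.8 against 94.0 CPM (0.594, 0.372 to 0.939), and was 148-fold and 22.5-fold the level elsewhere in control and Mettl3-CKO retinas. Gabbr1 and Gabbr2, the subunits of the GABA-B receptor, had ratios of 1.23 (0.767 to 2.00) and 0.856 (0.429 to 1.71). Among 6 glycine receptor genes, Glra2 was at 57.6 and 47.6 CPM against 0.392 and 0.258 CPM elsewhere, and the scaffold gene Gphn at 42.2 and 34.5 CPM. Of these, 2 were counted and 0 were past the fold.

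Of 13 further amacrine transcription factors, 10 were counted in the class, 0 were higher and 1 was lower between the libraries, against 21.2% of all genes past the fold in either direction. The lower 1 was Lhx9, named after its values were seen, on 13 and 8 UMIs. In each library 9 of 13 were at least 1.5-fold higher in amacrine-like than in other cells, against 15.1% and 14.4% of all genes, and 2 and 3 of them were lower by as much. Prdm13, which directs amacrine fate, was at 892 and 805 CPM, Ebf1 at 877 and 657 CPM, Ptf1a, needed for amacrine and horizontal cells, at 485 and 509 CPM, and Ebf3 at 347 and 292 CPM. Of 5 AP-2 genes 3 were counted, and Tfap2a alone was past the fold, beside the same 21.2%. Of 4 C1q-like genes 1 was counted, C1ql3, at 17.3 and 21.3 CPM, below the 66.9 and 62.1 CPM of other cells. Of 19 genes of amacrine subtypes and neuropeptides, 12 had 0 UMIs in the class, among them Chat, Th, Vip, Npy and Tac1. Chat and Vip also had 0 UMIs outside the class in each library, Th had 1 and 2 there and Tac1 5 and 3. The zeros of these 4 therefore say little about the class. Npy had 959 and 346 UMIs outside it. The 2 counted were Ppp1r17, past the fold and lower in Mettl3-CKO cells, and Dab1, beside the same 21.2% of all genes. Ppp1r17 was at 92.1 and 47.6 CPM (0.517, 0.314 to 0.837) and Dab1, of AII amacrine cells, at 65.2 and 62.4 CPM.

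Finally, the pattern of each transcript over 35 units (a cluster in 1 library with at least 20 cells) was set beside that of 11196 genes, as Pearson's r of log2(CPM + 1). The units share libraries and depth, so r is a description. Closest to Gad2 were Sox11, a factor of young neurons (0.901), Nfix (0.901) and the ephrin gene Efna5 (0.873). Closest to Slc6a9 were Mak, a kinase of the photoreceptor cilium (0.903), the adhesion gene Cadm2 (0.88) and Nt5e, the CD73 enzyme of rods (0.875). Closest to Slc32a1 were Cacng3, which encodes an auxiliary protein of AMPA receptors (0.905), Six2 (0.893) and Zfp804a (0.837). For Tfap2b they were Prdm13 (0.843), Slc1a6 (0.821) and Calb2 (0.805), and for Tfap2a Slc1a6 (0.886), Zfp804a (0.809) and Slc32a1 (0.808). With finer clusters (resolution 2), 2 of the 3 names were shared for Gad2 and Slc32a1 and 1 of 3 for Slc6a9, Tfap2a and Tfap2b.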

How the data were processed

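The sequencing was droplet capture with a 3′ kit. Per the labels and the study's methods, fastp was used by the authors for trimming and Cell Ranger 3.1.0 for alignment to mm10 (GRCm38) and counting. They named Seurat 3.1 for their own downstream steps. The deposited values are raw UMI counts per gene and cell, not normalized. The matrices as read ended before the number of entries in their size lines (8885793 of 13377095 and 7874178 of 17695523), and only the 3994 of 5995 and 3109 of 6992 complete cells were analysed. The study's cell filter (over 200 genes, under 20% mitochondrial UMIs) was not met by 237 and 86 of them, and they were kept in the main results. Mitochondrial UMIs (5.53% and 4.19%) were left out.

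Cells were clustered with Leiden (leidenalg 0.10.2, scanpy 1.11.5 for doublet scores, Python 3.11.15) on 2000 variable genes and 10 components at resolution 1. A cluster took a name from 15 marker lists. Summed UMIs were scaled to CPM. Levels carry exact Poisson, shares exact Clopper-Pearson and ratios exact conditional binomial intervals. A ratio was counted from 20 UMIs and called at 1.5-fold. The ratio and thinning code was tested on simulated data. Genes named beyond the 7 were the up to 4 genes of each list highest in control amacrine-like cells, the 5 highest and 5 lowest ratios between transmitter groups (at least 50 UMIs, seen in 20% of a side, same direction in each library) and the 3 most similar patterns. The 7 transcripts, the lists and the rules were chosen with earlier results of these data known. Of 30905 gene IDs, 30843 were found in GENCODE M21. Some genes of the lists are not reported here.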

Additional observations from a re-analysis of the deposited data

Results flagged for a closer look

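Slc6a9 went in opposite directions in different cell groups. The Mettl3-CKO over control ratio was 1.79 (1.14 to 2.89) in cone-like cells and 0.560 (0.311 to 0.969) in unnamed cluster 5. The difference between these groups was not tested. Cluster 5 held cells of low depth, with medians of 857.5 and 830 UMIs. In cone-like cells the Mettl3-CKO median depth was 12840 against 8298 UMIs. At a common 2000 UMIs, the share of cone-like cells with Slc6a9 was 9.52% in control and 7.77% in Mettl3-CKO retinas, so the rise was not seen there.

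Xist was at 1.53 CPM over all control cells and 1544 CPM over all Mettl3-CKO cells, outside the genes compared here. In amacrine-like cells it was seen in 0 of 60 control and 41 of 57 Mettl3-CKO cells.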

How the results depend on the processing

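No paired analysis was possible because each group has 1 library. Of 267 alternative values, 231 stayed within the counting interval or limit of the reported value, 36 moved outside it and 0 reversed a called direction. A share or a ratio within 1.5-fold has no called direction, so that 0 does not cover them. The log2 ratios of Gad2 and Slc6a9 between libraries, which were not called, did change sign in Mettl3-CKO cells without an Xist UMI. Those that leave out the highest-scoring doublets, the cells over 20000 UMIs or the highest cell of each library were added after the data were seen, because the doublet caller marked only 0.0501% and 0.225% of cells. The share of amacrine-like cells with both transmitter transcripts (21.6% in control, 7.69% in Mettl3-CKO cells) depended on depth and on the detection rule: it was 58.3% and 45.6% with no thinning, 40.8% and 22.4% at 4000 UMIs, 7.02% and 5.36% at 1000 UMIs, 3.92% and 1.92% when 2 UMIs were required, and 0% in each library with Gad1 alone as the GABA side. With Mettl3-CKO cells without an Xist UMI, the median log2 ratio between libraries moved from −0.16 to 0.31, with Gad2 at 0.50 and Slc6a9 at 0.26, and the median log2 ratio over other cells from 6.21 to 5.33. The latter was 5.42 as a mean of per-cell CPM and 5.21 when each cell took its name from its own markers. The 1555 genes past 1.5-fold became 6164 with no filter on low counts and 461 at 2-fold, which follows from the rules themselves. The cause of the other shifts was not tested. The study's cell filter enlarged the amacrine-like class to 95 and 74 cells and gave 16.9% and 6.90% with both transcripts. Depth limits every value: 60 and 57 cells from 1 library each carry no replicate error.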
